A study of Mus musculus with 18 samples.

Results

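The comparison described here asks which genes responded to loss of Dlg1 differently at 14 days than at 2 days after tamoxifen. For each gene the knock-out effect at 14 days (log2 fold change, knock-out over wild type) was compared with the knock-out effect at 2 days, and the 14 day effect minus the 2 day effect is called the difference below. A negative difference means that the effect was higher at 2 days than at 14 days, and a positive difference means the opposite. All 18 of the 18 libraries of the series entered 1 fit. The cells were intestinal stem cells taken by flow cytometry from mice 8 to 16 weeks old, with 5000 to 10000 cells in a sample. The groups were wild type after 48 hours (called 2 days, n = 4), Dlg1 conditional knock-out after 48 hours (n = 4), wild type after 14 days (n = 5) and Dlg1 conditional knock-out after 14 days (n = 5). Every group, the controls included, had received tamoxifen, the drug that switches on the recombinase in inducible mouse lines. The labels name neither the Cre driver nor the gate of the sort, and they do not say whether each sample was 1 animal, so p-values measure the spread between these samples, which may be technical.

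Intestinal stem cells sit at the base of the crypts and depend on Wnt signals. Their daughters divide further, then stop and mature into absorptive enterocytes or into secretory cells such as goblet, Paneth, enteroendocrine and tuft cells. Dlg1 is a scaffold protein of the lateral membrane that helps to set apical-basal polarity. Arhgap31 inactivates the small GTPases Cdc42 and Rac1, which shape the actin cytoskeleton.

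The 2 day libraries held 14.8 to 40.5 M counts and the 14 day libraries 11.1 to 15.7 M. Each time was deposited as a separate table, so time cannot be told apart from a run or cohort that the tables may represent. Only a shift common to both genotypes of a table cancels in the difference. Wild-type library 1 at 2 days, with 40.5 M counts and 49.1% of them mitochondrially encoded, and knock-out library 5 at 14 days, with 48.8% of its counts in predicted gene models, stood apart from their groups. Y-linked transcripts were high in 2 of 4 libraries of each genotype at 2 days and in 3 of 5 at 14 days. These were wild-type libraries 3 and 4 and knock-out libraries 1 and 2 at 2 days, and libraries 1, 3 and 4 of each genotype at 14 days. The 14 day column names carry a letter, B for libraries 1 and 2 and J for libraries 3 to 5 of each genotype, which the labels do not explain. The stem cell marker Lgr5 was present in all 4 groups, at mean levels of 263 and 199 CPM in wild type and knock-out at 2 days and 70.3 and 73.3 CPM at 14 days. CPM are counts scaled to a library's TMM-adjusted total. The leukocyte gene Ptprc had group means of 0.800 to 1.79 CPM, against 1156 to 1732 CPM for the epithelial gene Epcam. Markers of other cell types were summed over all counted genes of a list, tested or not. Those of T, B and plasma cells (25 genes, 10 of them tested) ranged from 7.39 to 25.0 CPM in wild type and 15.1 to 32.4 CPM in knock-out libraries at 2 days. At 14 days they ranged from 8.92 to 15.3 and from 12.0 to 21.1 CPM. Over the 2 genotypes, exocrine pancreas markers (15 genes, 4 of them tested) summed to 15.3 to 65.9 CPM at 2 days and 87.7 to 788 CPM at 14 days. Red cell markers (10 genes, 4 of them tested) summed to 43.1 to 135 and 30.001 to 51.3 CPM. In each 2 day group 9 pancreas markers had 0 counts. The globin genes Hba-a1, Hba-a2, Hbb-bs and Hbb-bt had 0 counts in all 2 day libraries, so the red cell sums there came from other members. At 14 days Hba-a1, Hba-a2 and Hbb-bt had 0 counts in wild type, and Hba-a2 in knock-out. Myeloid and mast cell markers ranged from 25.9 to 93.4 CPM and stromal markers from 16.9 to 43.8 CPM in all libraries. Over the tested members alone, the median difference was 0.44 for the lymphoid, -0.12 for the myeloid, -0.14 for the stromal, -0.77 for the pancreatic and 0.86 for the red cell markers. The part of these cells in the results was not tested.

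No gene had a difference past the threshold. Of 15458 genes tested in edgeR (quasi-likelihood F-test, p-values adjusted after Benjamini and Hochberg), 0 were called (0.0%), and the smallest adjusted p was 0.289, that of Gsdmc2. An unadjusted p under 0.05 was reached by 921 genes (5.96%), 359 of them positive (2.32%) and 562 negative (3.64%). Differences of any size were positive for 48.9% of genes and negative for 51.1%. DESeq2 on the same libraries called 13 (0.0841%), 4 positive and 9 negative, and limma voom called 0. In the same fit edgeR called 2 genes at 2 days (0.0129%), Aim2 and Gsdmc2, and 0 at 14 days (0.0%). An unadjusted p under 0.05 was reached by 1295 genes at 2 days (8.38%), of which 727 were higher (4.7%) and 568 lower (3.67%) in the knock-out, and by 369 at 14 days (2.39%). Of those 369, 193 were higher (1.25%) and 176 lower (1.14%), and with RLE size factors 241 of 378 were higher. The 14 day count depended on single libraries, at 1222 (860 higher) without wild-type library 3, 761 (527 higher) without knock-out library 5 and 234 (70 higher) without knock-out library 1 and 220 (122 higher) without wild-type library 2 of that time, and at 602 without wild-type library 1 at 2 days. Without the 2 libraries that stand apart 888 genes reached that level at 2 days and 1139 at 14 days, and by voom 1134 and 2201, so which time had more such genes turned with these settings.

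Across the 15458 genes the effects at the 2 times were nearly unrelated, with a Pearson r of -0.03 and a Spearman rho of -0.01 over genes, which are not independent replicates. The median absolute log2 effect was 0.27 at 2 days and 0.20 at 14 days, below the median standard errors of 0.32 and 0.29. Of the 921 genes with an unadjusted p under 0.05 for the difference, 778 had the larger absolute effect at 2 days and 143 at 14 days, and 599 had an unadjusted p under 0.05 at 2 days against 99 at 14 days. These splits are those of the fit with all libraries. The 2 estimates had opposite signs for 840 of the 921, which selection on their difference favours, and 506 of these were higher in the knock-out at 2 days and lower at 14 days while 334 went the other way. Among all genes 26.7% had the first pattern and 23.3% the second.

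**Figure D1:**
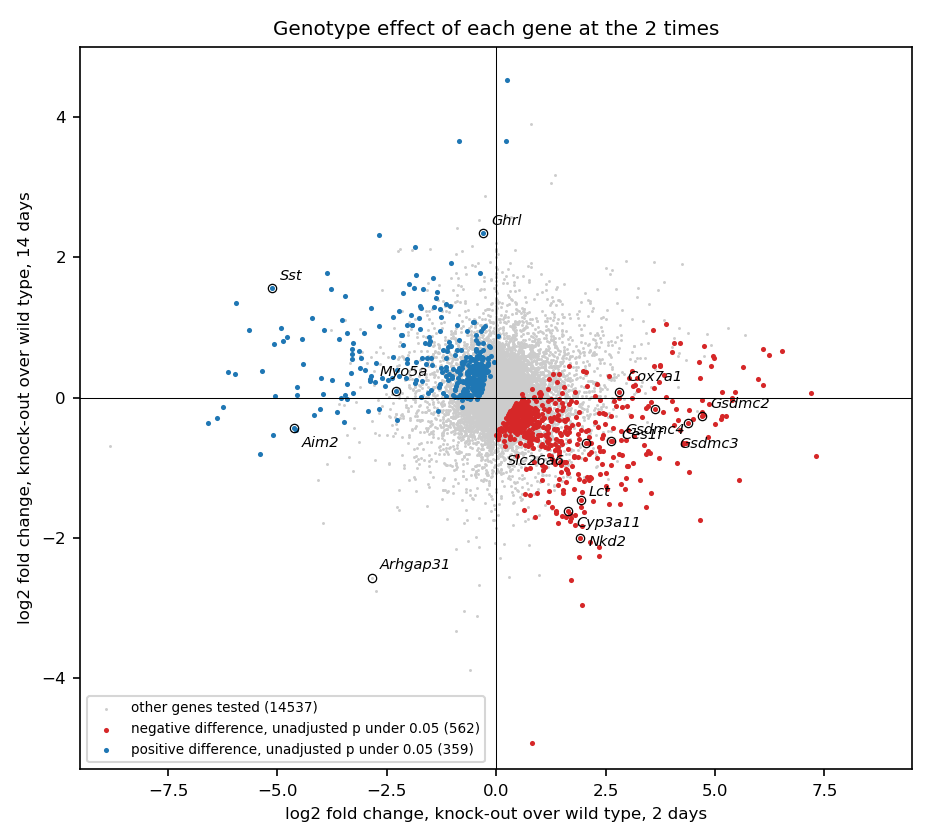
Knock-out effect at 2 days (x axis) and at 14 days (y axis), both as log2 fold changes, for each of the 15458 genes tested. Red and blue points are the 562 and 359 genes with a negative or positive difference at an unadjusted p under 0.05, and circles mark the labelled genes. The red points lie mostly right of the vertical zero line and the blue points left of it, while Arhgap31 is low on both axes.

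The largest difference by p was that of Gsdmc2, a member of the gasdermin C family of pore-forming proteins. In wild type at 2 days Gsdmc2 (chromosome 15, 63824346 to 63845177, minus strand, GRCm38) stood at 1.33, 3.21, 1.16 and 0.768 CPM in libraries 1 to 4, and in knock-out it stood at 5.70, 16.7, 78.3 and 69.4 CPM. Its 14 day levels in libraries 1 to 5 were 12.6, 48.1, 21.5, 17.7 and 42.1 CPM in wild type and 11.8, 46.5, 30.2, 20.02 and 8.82 CPM in knock-out. The groups were fully apart at 2 days and overlapped throughout at 14 days, when both genotypes lay above all 2 day wild-type libraries. Its log2 effect was 4.70 ± 0.75 (SE) at 2 days and -0.27 ± 0.56 (SE) at 14 days, and the difference was -4.97 ± 0.91 (SE), which did not pass (edgeR's quasi-likelihood test, adjusted p = 0.289). Without knock-out library 1 at 2 days it passed (adjusted p = 0.0194), as it did with Y-linked transcripts as a covariate (adjusted p = 0.0479). Its relative Gsdmc4 had a difference of -3.78 ± 0.96 (SE), with knock-out levels at 2 days of 12.1, 21.4, 137 and 76.5 CPM against at most 8.99 CPM in wild type. Gsdmc3 and Gsdmcl2, chosen after their values were seen, had differences of -4.75 and -7.13. In Gsdmc2, Gsdmc3 and Gsdmc4, 51.3%, 46.0% and 39.0% of the 50-base windows of their exons also occur in another gasdermin C gene. Their counts may therefore not be independent, which depends on how shared reads were counted, and this was not given. Gsdmcl2 shared 0 such windows.

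The other genes named for the smallest p among negative differences had varied roles. Adh6a, an alcohol dehydrogenase, stood at 8.91, 10.4, 15.9 and 14.8 CPM in wild type and at 84.6, 30.5, 33.9 and 28.7 CPM in knock-out at 2 days. The 14 day levels were 173, 144, 244, 136 and 117 CPM in wild type and 244, 90.4, 91.3, 119 and 124 CPM in knock-out. The genotypes were apart at 2 days alone, and all 14 day libraries lay above them. The difference was -2.11 ± 0.47 (SE), and -1.60 without knock-out library 1 at 2 days.

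Slc26a6, an apical anion exchanger, stood at 0.257, 3.73, 5.41 and 4.16 CPM in wild type and at 19.4, 10.4, 12.4 and 12.8 CPM in knock-out at 2 days. Its levels at 14 days were 55.1, 42.5, 70.3, 44.0 and 53.4 CPM in wild type and 50.3, 32.5, 26.6, 19.6 and 41.1 CPM in knock-out. Here the knock-out libraries were all above wild type at 2 days, and at 14 days 4 of 5 were below the lowest wild-type library. The difference was -2.68 ± 0.61 (SE). St3gal4, a sialyltransferase of the Golgi whose exons overlap an antisense transcript, held 16.1, 19.8, 14.5 and 20.03 CPM in wild type and 88.0, 27.7, 42.5 and 63.3 CPM in knock-out at 2 days. At 14 days the ranges were 79.2 to 166 and 66.6 to 145 CPM, and the difference was -1.74 ± 0.40 (SE). The remaining genes of this direction were the carboxylesterase Ces1f (-3.25 ± 0.72, SE), the cytochrome P450 Cyp4f40 (-2.002 ± 0.45, SE), the hexokinase-like Hkdc1 (-1.60 ± 0.36, SE), the receptor phosphatase Ptprh (-1.92 ± 0.48, SE) and the fatty acid transporter Slc27a4 (-1.65 ± 0.41, SE). None of the 10 passed with the filter on low counts (edgeR's quasi-likelihood test, adjusted p from 0.289 to 0.594). All 10 were among the 98 of 35326 genes edgeR called without that filter. All 10 had knock-out and wild-type libraries that did not overlap at 2 days, against 3.65% of all genes tested, and this follows in part from choosing them by p. DESeq2 called Gsdmc2, Slc26a6, Adh6a, Cyp4f40, St3gal4 and Hkdc1 among them.

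Positive differences came chiefly from genes that were low in the knock-out at 2 days. Aim2, a cytosolic sensor of DNA that starts an inflammasome, stood at 91.9, 70.6, 4.45 and 72.2 CPM in wild type and at 1.05, 0.986, 2.69 and 5.17 CPM in knock-out at 2 days. At 14 days it was near 1 CPM in both genotypes, at 0.986 to 1.94 CPM in wild type and 0.366 to 1.71 CPM in knock-out. Thus 3 of 4 wild-type libraries at 2 days were high and every other library was at or below 5.17 CPM. The difference was 4.19 ± 0.88 (SE), with an adjusted p of 0.496 by edgeR's quasi-likelihood test. It passed without wild-type library 3 at 2 days (edgeR, adjusted p = 0.00716) and by DESeq2 (adjusted p = 0.0258). Sst, the enteroendocrine hormone somatostatin, had 11.9, 16.4, 0 and 0 CPM in wild type at 2 days and at most 0.523 CPM in knock-out, and at 14 days 2.46, 2.44, 9.07, 6.19 and 5.79 CPM against 10.3, 21.2, 22.96, 19.1 and 2.54 CPM. Its difference was 6.70 ± 1.57 (SE), and it ranged from 1.16 to 7.77 over the other settings and left-out libraries. The 2 wild-type libraries with 0 CPM were those with Y-linked transcripts. In mean log2 CPM the 2 day effect of Sst was 1.39 within libraries with Y-linked transcripts and -5.83 within those without them (n = 2 each).

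Rab32, a GTPase of lysosome-related organelles, held 19.4, 8.80, 9.79 and 10.9 CPM in wild type and 5.35, 4.76, 6.63 and 3.44 CPM in knock-out at 2 days. At 14 days the ranges were 11.3 to 15.9 and 11.3 to 22.2 CPM, so the genotypes were apart at 2 days and overlapped at 14 days. The difference was 1.48 ± 0.39 (SE). Itgam, an integrin of myeloid cells that shares exon sequence with an overlapping gene model, and Myo5a, a motor protein, had differences of 2.34 ± 0.72 and 2.38 ± 0.76 (SE). Both rested on wild-type library 1 at 2 days, which held 65.8 and 55.1 CPM against at most 12.0 and 11.1 CPM in the other 3, and without it both differences were 1.16. Rida, an enamine deaminase, had 1.23 ± 0.39 (SE), and 0.78 without that library. For Mad2l1, a spindle checkpoint protein, and Gyg, the primer of glycogen synthesis, the 2 effects were of like size and opposite sign. Mad2l1 had -0.41 at 2 days and 0.47 at 14 days, and Gyg had -0.42 and 0.46. Neither gene had an unadjusted p under 0.05 at both times. In mean log2 CPM the 14 day effect of Gyg was 0.73 within the libraries with Y-linked transcripts (n = 3 each). It was -0.03 within those without them (n = 2 each). For Mad2l1 these values were 0.44 and 0.53. The list of 10 ended with Mblac2 (1.42 ± 0.47, SE) and Tifa (0.99 ± 0.33, SE), an adaptor of innate signalling. None passed by edgeR's quasi-likelihood test (adjusted p from 0.496 to 0.762), and without the filter on low counts Aim2, Sst, Itgam and Myo5a were called.

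**Figure D2:**
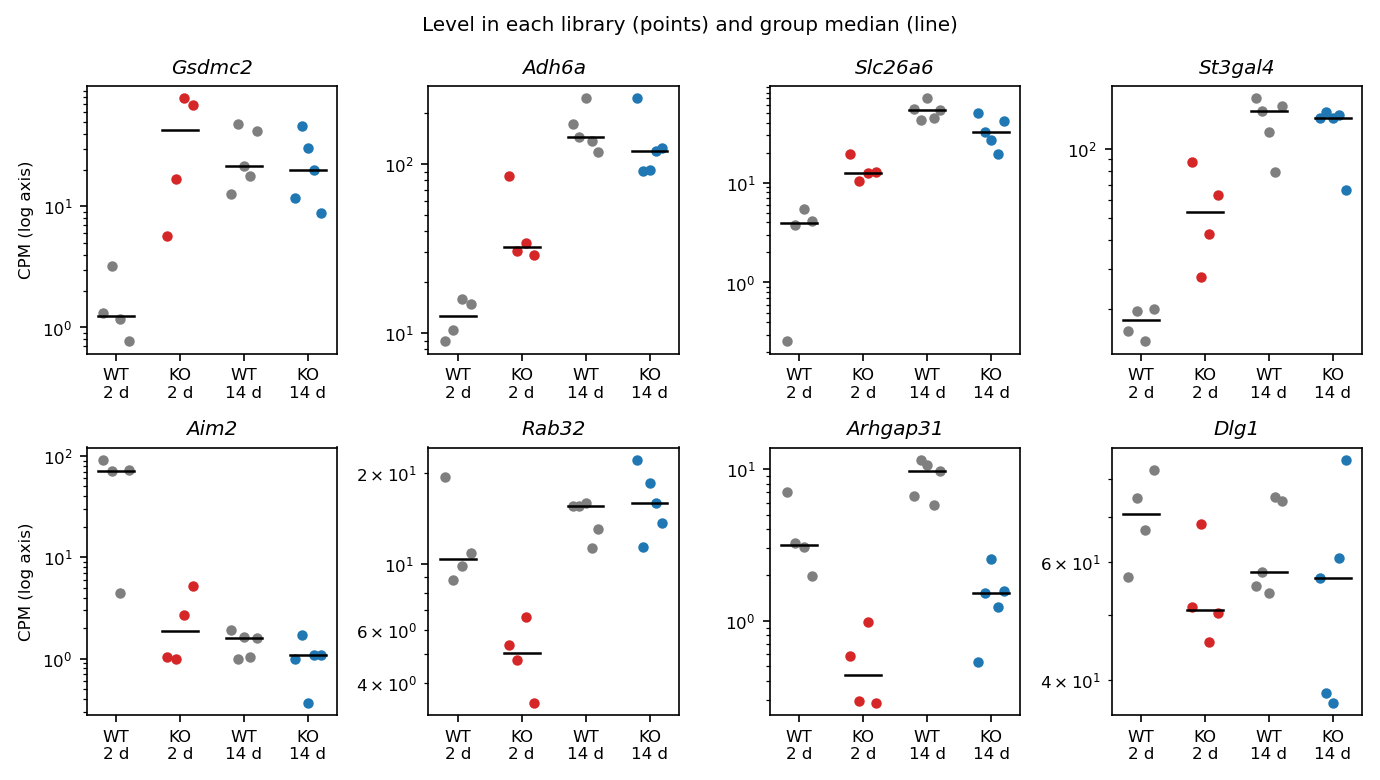
CPM (log axes) of 8 genes in each library (points) with the group median (line), for wild type (grey) and knock-out (red at 2 days, blue at 14 days). Gsdmc2, Adh6a, Slc26a6 and St3gal4 are apart between genotypes at 2 days and overlap at 14 days, Aim2 is high in 3 wild-type libraries at 2 days alone, and Arhgap31 is lower in the knock-out at both times.

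Arhgap31 behaved differently from these genes: its effect was large at both times and alike within error. At 2 days Arhgap31 stood at 7.02, 3.26, 3.08 and 1.98 CPM in wild type and 0.581, 0.296, 0.984 and 0.287 CPM in knock-out. Later, at 14 days, it held 6.64, 11.5, 10.7, 5.80 and 9.65 CPM against 0.534, 1.52, 2.56, 1.24 and 1.57 CPM. Knock-out and wild type did not overlap at either time. The log2 effects were -2.85 ± 0.55 and -2.57 ± 0.47 (SE), and the difference of 0.28 ± 0.67 (SE) had no stable sign, at -0.18 without wild-type library 1 at 2 days and -0.02 without knock-out library 3 at 14 days. Dlg1 itself had a difference of 0.19 ± 0.30 (SE), with effects of -0.38 at 2 days and -0.19 at 14 days and overlapping groups at both. The labels do not give the deleted exons, so counts over the whole gene do not check the deletion. Cdc42 had a difference of 0.39 ± 0.30 (SE).

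Genes whose effect turned between the times were few. An unadjusted p under 0.05 at both times was reached by 27 genes, 15 with opposite effects (0.097% of those tested) and 12 with the same sign (0.0776%). Effects unrelated between the times would give the product of the single-time shares, 8.38% and 2.39%. The 27 genes, 0.175% of those tested, do not exceed that product. All 15 were higher in the knock-out at 2 days and lower at 14 days, and 0 went the other way. The count was 6 without knock-out library 3, 29 without library 1 and 26 without library 2 of the 14 day knock-out, and 24 without wild-type library 2 at 2 days. None of the 15 passed the adjusted threshold at either time or for the difference, while 7 of them (Lrrtm2, Nkd2, Pcyt2, Ptprh, Slc16a5, Spsb1 and Tgfbi) were called for the difference without the filter on low counts.

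Of these genes Slc35c2, a transporter of the Golgi and ER, held 8.82, 9.79, 7.26 and 13.4 CPM in wild type and 17.1, 12.8, 15.2 and 19.5 CPM in knock-out at 2 days. At 14 days it held 25.9, 24.8, 45.7, 23.7 and 18.4 CPM in wild type and 16.5, 19.8, 12.9, 15.7 and 20.9 CPM in knock-out. A single knock-out library overlapped the wild-type range at 2 days and a pair did at 14 days. Its log2 effects were 0.72 ± 0.27 and -0.69 ± 0.24 (SE), a difference of -1.41 ± 0.36 (SE). In mean log2 CPM the 14 day effect of Slc35c2 was -1.01 within the libraries with Y-linked transcripts (n = 3 each) and -0.07 within those without them (n = 2 each). Ptprh, which is found on microvilli, had 3.17, 8.39, 8.15 and 10.4 CPM in wild type and 27.8, 14.8, 11.7 and 14.3 CPM in knock-out at 2 days, and 7.48, 7.11, 15.2, 7.56 and 9.10 against 6.56, 6.197, 4.24, 6.26 and 4.71 CPM at 14 days. Its genotypes did not overlap at either time, with the knock-out above at 2 days and below at 14 days, and 0.518% of all genes tested had groups that did not overlap at 14 days.

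Slc16a5, a monocarboxylate transporter, had effects of 0.62 and -0.55, Spsb1, a substrate adaptor of a ubiquitin ligase, 1.03 and -0.70, Eepd1 1.12 and -0.99, and Fam234a 0.51 and -0.40. Within the libraries with and without Y-linked transcripts the 14 day effects in mean log2 CPM were uneven for some. They were -1.40 and -0.25 for Eepd1, -0.66 and -0.06 for Fam234a, -0.25 and -1.10 for Spsb1, and -0.46 and -0.58 for Slc16a5. Exons of Slc16a5 and Spsb1 overlap antisense transcripts, whose reads may have been counted with them. The other 9 were Entpd8, Lrrtm2, Nkd2, Pcyt2, Plcd1, Tgfbi, Xpnpep2 and 2 predicted models. Among them Pcyt2, an enzyme of phosphatidylethanolamine synthesis, had effects of 0.83 and -0.55, and Tgfbi, a secreted matrix protein, 0.94 and -0.59.

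**Figure D3:**
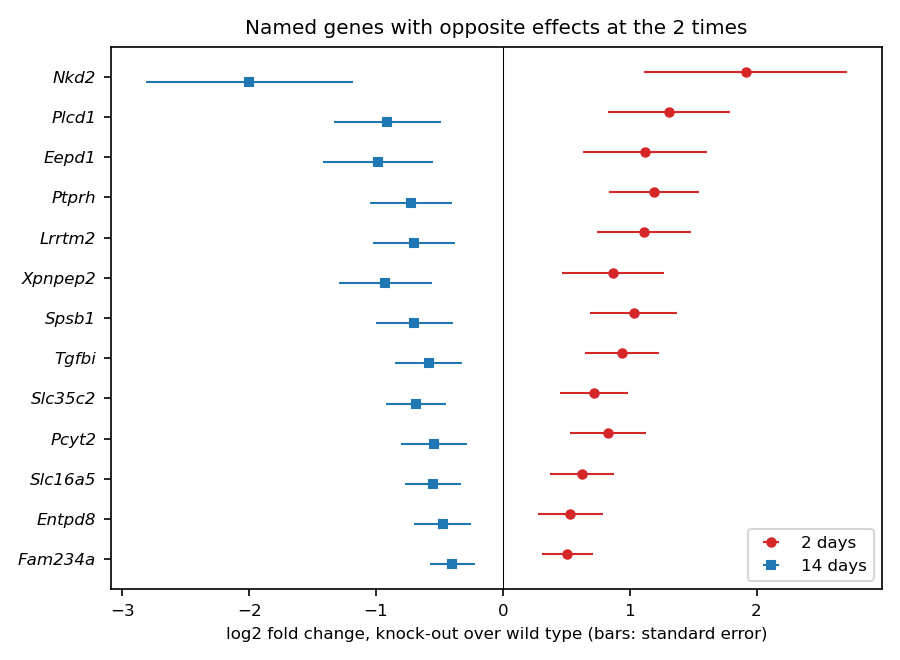
Log2 effect of the knock-out with its standard error at 2 days (red circles) and 14 days (blue squares) for the 13 genes with a symbol of their own among the 15 with opposite effects. All red circles lie right of zero and all blue squares left of it, which the choice of these genes fixes for each gene but not the direction they share.

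Gene lists for cell types, pathways and processes were described by their counts and medians. Over all genes tested the median difference was -0.01. Enterocyte markers had the lowest median of the 30 epithelial lists, at -1.27, with 44 of 51 members negative. Of these, 24 were negative at an unadjusted p under 0.05, 47.1% of the list against 3.64% of all genes, and 0 were positive at that level. The median effect was 1.04 at 2 days and -0.29 at 14 days. At an unadjusted p under 0.05, 23 of 51 members were higher in the knock-out at 2 days and 0 lower, against 4.7% and 3.67% of all genes. At 14 days 1 member was higher and 0 were lower at that level, against 1.25% and 1.14% of all genes. The negative 14 day median thus came from members that did not reach it. After adjustment edgeR called no member of this list or of any other. Without a filter on low counts it called 20 of 52 enterocyte markers, against 98 of 35326 genes. DESeq2 called 1 of 51, against 0.0841% of all genes.

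The enterocyte members with the smallest p were Slc26a6, given above, Cdhr2, Car4 and Alpi. Cdhr2, a cadherin that links microvilli, held 54.8, 62.7, 65.8 and 58.2 CPM in wild type and 135, 91.4, 59.1 and 89.1 CPM in knock-out at 2 days, and 119, 99.4, 126, 118 and 110 against 87.6, 113, 84.5, 88.7 and 105 CPM at 14 days. Its difference was -0.89 ± 0.25 (SE), with 3 of 4 knock-out libraries above wild type at 2 days and 3 of 5 below it at 14 days. Car4, a membrane carbonic anhydrase, had 2.31 to 10.5 CPM in wild type and 17.6 to 40.96 CPM in knock-out at 2 days, and a difference of -1.92 ± 0.56 (SE). Alpi, intestinal alkaline phosphatase of the brush border, had 34.0, 13.3, 13.01 and 23.4 CPM in wild type and 137, 26.2, 23.9 and 41.5 CPM in knock-out at 2 days. The difference of Alpi was -2.22 ± 0.66 (SE), and -1.32 without knock-out library 1.

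Other enterocyte functions had negative values as well. Among digestive enzymes, lactase (Lct) had a difference of -3.40 ± 1.14 (SE), sucrase-isomaltase (Sis) -1.76 ± 0.82 (SE), the peptidases Mep1b and Ace -2.62 and -2.30, and trehalase (Treh) -2.10. Among transporters the fructose carrier Slc2a5 had -2.08 ± 0.64 (SE), the peptide carrier Slc15a1 -2.87 ± 1.14 (SE) and the amino acid carrier Slc6a19 -2.01 ± 0.77 (SE). Among lipid handling genes Mttp had -1.22 ± 0.38 (SE), Dgat1 -0.95 ± 0.36 (SE) and Apoa4 -2.44 ± 1.16 (SE). The positive members included Ada at 0.58 ± 0.33 (SE) and the ileal bile acid binding protein Fabp6 at 1.38 ± 0.98 (SE), neither with an unadjusted p under 0.05.

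The enterocyte list varied widely between libraries of one group. Relative to the wild-type mean of its time, the mean log2 CPM of the list was 1.90, 0.15, -0.01 and 0.77 in knock-out libraries 1 to 4 at 2 days, while wild type ranged from -0.33 to 0.18. At 14 days it was 0.72, -0.43, -0.29, -0.57 and -0.67 in knock-out libraries 1 to 5, and wild type ranged from -0.80 to 0.91. Knock-out library 1 was thus the highest of its group at each time, and at 14 days the genotypes overlapped. Without knock-out library 1 at 2 days the median difference was -0.62 and 8 members had an unadjusted p under 0.05, without wild-type library 3 at 14 days it was -0.86 with 15, and without knock-out library 1 at 14 days it was -1.63 with 34. Within the libraries of letter B the 14 day list effect was 0.41 (n = 2 each) and within letter J -0.68 (n = 3 each). Within the 14 day libraries with Y-linked transcripts it was -0.41 (n = 3 each), and within those without them 0.00 (n = 2 each). The lower 14 day level was thus absent in 1 stratum of each split. Fewer mature cells in a sorted sample and less RNA per cell cannot be told apart in these bulk libraries.

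Short stretches of promoter are shown for the enterocyte and xenobiotic list members with an unadjusted p under 0.05 whose promoter holds the letters CAAAGTCCA, a form of the site of HNF4 factors, which are nuclear receptors of the intestinal epithelium. Capitals mark these letters and, where present, TATAAA, the letters of a TATA box wherever they lie, on either strand. The 2 motifs share no position. The sequences run from 250 bases before to 50 after the start of the gene, on the gene's strand, from RefSeq on GRCm38.p6.
Alpi, chr1:87101557-87101856, minus strand: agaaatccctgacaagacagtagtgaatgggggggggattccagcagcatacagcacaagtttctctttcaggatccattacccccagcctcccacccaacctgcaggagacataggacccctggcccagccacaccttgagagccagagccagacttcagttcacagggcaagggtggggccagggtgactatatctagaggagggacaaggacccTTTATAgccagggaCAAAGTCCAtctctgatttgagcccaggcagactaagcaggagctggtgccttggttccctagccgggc
Cyp3a11, chr5:145879805-145880104, minus strand: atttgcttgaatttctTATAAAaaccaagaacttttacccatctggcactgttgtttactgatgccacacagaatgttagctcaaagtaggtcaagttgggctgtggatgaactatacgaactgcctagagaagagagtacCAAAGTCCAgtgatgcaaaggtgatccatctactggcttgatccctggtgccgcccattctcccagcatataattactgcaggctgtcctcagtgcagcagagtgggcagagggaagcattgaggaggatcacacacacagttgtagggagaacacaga
Treh, chr9:44672983-44673282, plus strand: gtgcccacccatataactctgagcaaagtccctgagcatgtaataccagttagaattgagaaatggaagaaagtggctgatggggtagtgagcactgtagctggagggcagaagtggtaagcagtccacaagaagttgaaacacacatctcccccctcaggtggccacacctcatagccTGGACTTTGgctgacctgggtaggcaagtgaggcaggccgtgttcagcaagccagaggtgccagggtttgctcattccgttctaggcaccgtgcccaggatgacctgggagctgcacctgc
In Alpi both motifs lie within 33 bases before the start, in Cyp3a11 CAAAGTCCA begins 109 and TATAAA 234 bases before it, and in Treh CAAAGTCCA begins 71 bases before it with 0 TATAAA in the window. CAAAGTCCA was present in 3 of 44 enterocyte promoters (6.82%), 4 of 53 xenobiotic (7.55%), 0 of 20 stem cell and 0 of 42 G2/M promoters, and in 66 of 10850 promoters of all genes tested (0.608%). It was in 8 of 375 promoters of genes with a negative difference at an unadjusted p under 0.05 (2.13%) and in 1 of 257 with a positive one (0.389%). The letters also occur in the list members Sult1b1, Cyp2c65 and Cyp2c68, whose promoters are not shown. Those had differences of -0.14, -0.48 and -0.92, none with an unadjusted p under 0.05. TATAAA was in 34.1% of enterocyte and 35.8% of xenobiotic promoters and in 9.27% of all. It was also in 4 of 20 stem cell promoters (20%) and in 1 of 42 G2/M promoters (2.38%). These matches describe letters in a window and show no binding.

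Enzymes of xenobiotic and retinoid metabolism, which modify drugs, dietary toxins and vitamin A, followed the enterocyte markers, and 4 genes named here belong to both lists. The median difference was -0.84, with 52 of 57 members negative. Of these, 17 (29.8%) were negative at an unadjusted p under 0.05, against 3.64% of all genes. The median effects were 0.67 at 2 days and -0.25 at 14 days. At the same level 18 of 57 members were higher in the knock-out at 2 days and 0 lower, against 4.7% and 3.67% of all genes. At 14 days 1 was higher and 0 lower, against 1.25% and 1.14%. The count of 17 became 10 when knock-out library 1 at 2 days was left out and 11 for library 4 of that group. Of the 14 day libraries, leaving out wild-type 3 gave 10, knock-out 4 gave 11 and knock-out 1 gave 25, and the 14 day median was -0.03 without that wild-type library. Without the filter on low counts edgeR called 12 of 61 members, against 98 of 35326 genes. DESeq2 called 2 of 57, against 0.0841% of all genes. Ces1f held 0.257, 1.81, 1.78 and 3.33 CPM in wild type and 21.97, 10.4, 4.79 and 6.31 CPM in knock-out at 2 days, and 39.2, 20.6, 91.5, 61.5 and 31.0 against 46.9, 25.1, 31.5, 26.9 and 28.4 CPM at 14 days. Its genotypes were apart at 2 days and overlapped at 14 days. Cyp4f40 and Cyp4f14, P450 enzymes of fatty acid hydroxylation, had differences of -2.002 and -1.83. The P450 enzymes Cyp3a11, Cyp3a25 and Cyp2b10 had -3.25, -3.76 and -2.99, the retinaldehyde dehydrogenase Aldh1a1 -2.17 and the retinol carrier Rbp2 -2.01. Cyp3a11, Cyp2b10, Cyp3a13 and Rbp2 are the shared members. All 4 knock-out libraries lay above the wild-type mean at 2 days, by 1.53, 0.30, 0.30 and 0.86, and wild type ranged from -0.26 to 0.33, above 2 of them. At 14 days 4 of 5 lay below the mean, and wild type ranged from -0.44 to 0.64. The list effect at 14 days was 0.24 within letter B and -0.68 within letter J, and -0.56 within the libraries with and 0.06 within those without Y-linked transcripts.

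Fatty acid oxidation genes and targets of PPAR receptors had a median difference of -0.28, with 29 of 37 negative. Of these, 5 were negative at an unadjusted p under 0.05 (13.5%, against 3.64% of all genes). That count was 8 without knock-out library 3 at 2 days or knock-out library 1 at 14 days. Creb3l3, a membrane-bound transcription factor of lipid metabolism, held 0.942, 8.68, 5.96 and 3.07 CPM in wild type and 26.5, 12.3, 5.77 and 14.3 CPM in knock-out at 2 days, and its difference was -2.17 ± 0.59 (SE). Angptl4, an inhibitor of lipoprotein lipase, had -1.67 ± 0.54 (SE), and Plin2, a lipid droplet coat protein, had -0.68 ± 0.25 (SE). The mitochondrial enzymes of the list differed less, with Cpt1a at -0.31 ± 0.25 (SE) and Hadha at -0.18 ± 0.24 (SE). The list effect at 14 days was 0.21 within letter B and -0.16 within J.

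Receptors, ligands and feedback genes of the EGF pathway, which drives proliferation through MAP kinases, had a median difference of -0.31, with 28 of 36 negative. Of these, 4 were negative at an unadjusted p under 0.05 (11.1%, against 3.64% of all genes), which became 7 without wild-type library 2 at 2 days. Spry2, a feedback inhibitor, held 11.8, 11.1, 10.3 and 8.25 CPM in wild type and 15.2, 21.5, 19.4 and 20.2 CPM in knock-out at 2 days, without overlap. The 14 day values were 8.21, 10.4, 19.3, 10.3 and 9.15 against 7.17, 8.37, 9.43, 10.99 and 7.49 CPM, with overlap. Its difference was -1.28 ± 0.36 (SE). The kinase Map2k2 had -0.87 ± 0.29 (SE), the ERK phosphatase Dusp5 -0.91 ± 0.32 (SE) and the adaptor Shc1 -0.61 ± 0.27 (SE). For Shc1 the effect was at 14 days, -0.54 against 0.07 at 2 days. The receptors Egfr and Erbb2 had 0.20 ± 0.31 and -0.48 ± 0.31 (SE). The list effect at 14 days was -0.20 within letter B and -0.16 within J, and the median difference was -0.19 without wild-type library 1 at 2 days.

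**Figure D4:**
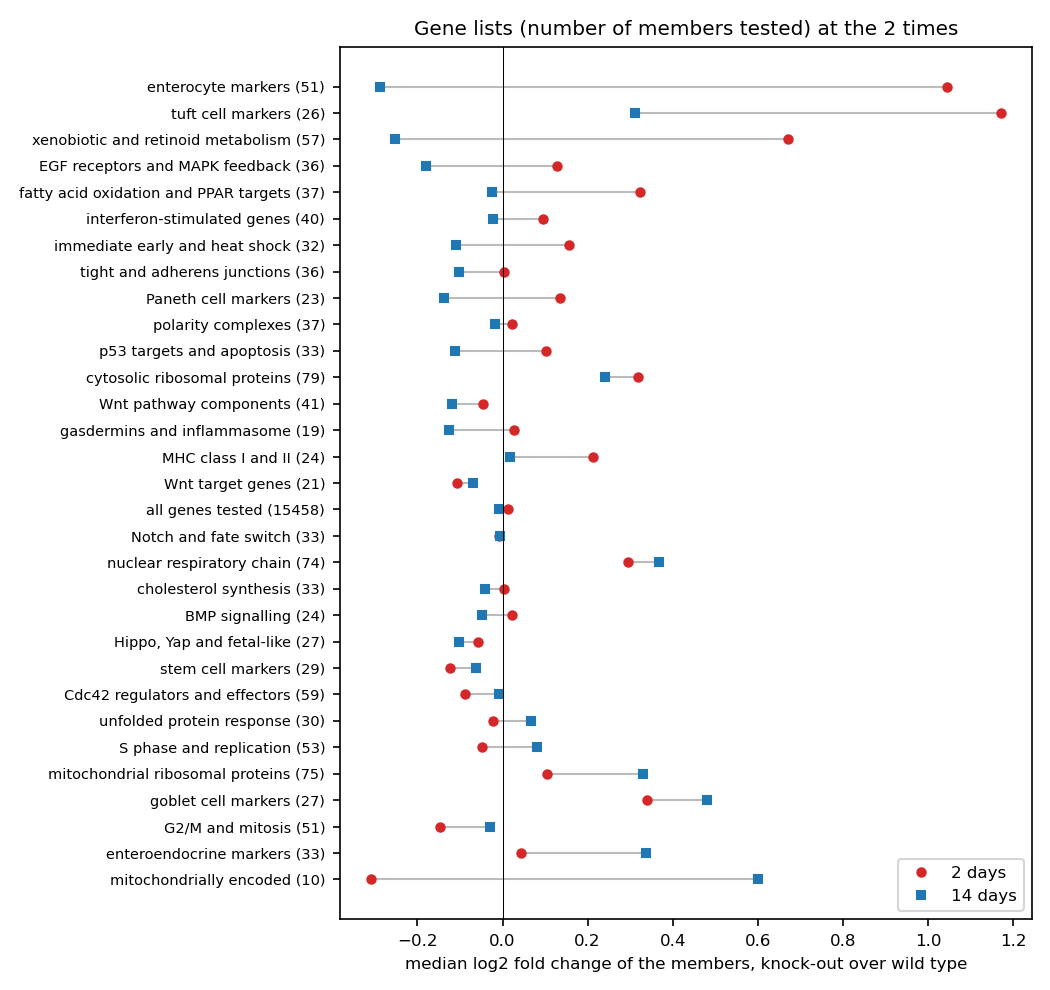
Median log2 effect of the knock-out over the tested members of each of 30 epithelial lists and over all genes, at 2 days (red circles) and 14 days (blue squares), ordered by the median difference. Enterocyte and xenobiotic medians lie above 0 at 2 days and below 0 at 14 days, though 0 of their members were lower at 14 days at an unadjusted p under 0.05. Mitochondrially encoded genes show the reverse, but their 2 day median was 0.44 without wild-type library 1 of that time. Stem cell and Wnt target medians lie slightly below 0 at both times.

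Genes of G2/M and mitosis had positive differences, with a median of 0.22. Of 51 members 40 were positive, and an unadjusted p under 0.05 was reached by 3, all positive (5.88%, against 2.32% of all genes). That count was 9 by voom, 8 without knock-out library 5 at 14 days, 7 without wild-type library 2 at 2 days, 5 without wild-type library 1 or 3 at 14 days, and 1 without wild-type library 4 or 5 or knock-out library 2 or 3 at 14 days. The median effect was -0.15 at 2 days and -0.03 at 14 days. At an unadjusted p under 0.05, 12 of 51 members were lower in the knock-out at 2 days and 0 higher, against 3.67% and 4.7% of all genes. At 14 days 0 members reached that level in either direction. Hmmr, which binds spindle microtubules, held 183, 119, 122 and 188 CPM in wild type and 129, 102, 102 and 88.0 CPM in knock-out at 2 days, and at 14 days its genotypes overlapped at 66.3 to 99.9 and 68.9 to 114 CPM. Its difference was 0.71 ± 0.26 (SE). Ckap2l and the condensin subunit Smc4 had 0.85 ± 0.37 and 0.84 ± 0.39 (SE), and 0.37 and 0.29 without wild-type library 1 at 2 days. The mitotic kinase Cdk1 had 0.48 ± 0.25 (SE). All 4 knock-out libraries were below the wild-type mean for this list at 2 days, by 0.07 to 0.29, and wild type ranged from -0.30 to 0.20.

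Tuft cell markers had a median difference of -0.93 with 20 of 26 negative, from median effects of 1.17 at 2 days and 0.31 at 14 days, so the effect of this list was smaller at 14 days and kept its sign. The members behind it were rare transcripts. Bmx, a tyrosine kinase, had 0, 0, 0.411 and 0.256 CPM in wild type and 0.174, 2.56, 0.656 and 2.08 CPM in knock-out at 2 days, and 1.93 to 9.92 and 2.64 to 10.6 CPM at 14 days. The transcription factor Gfi1b was at 0 in 3 of 4 wild-type libraries at 2 days, and Gng13, a G protein subunit of taste signalling, in all 4, so their fitted values depend on the prior count. Without knock-out library 2 at 2 days the median was -0.10, and without wild-type library 3 at 14 days it was -0.31. By voom it was -0.23, and with a minimum count of 50 it was -0.38. An unadjusted p under 0.05 for the difference was reached by 2 negative members and 1 positive one (11.5%, against 5.96% of all genes). Cd24a, which many crypt cells express, had 0.82 ± 0.36 (SE), and 0.47 without wild-type library 1 at 2 days.

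Enteroendocrine markers had a median difference of 0.33. Of 33 members 20 were positive, and Sst and Ghrl were the 2 with an unadjusted p under 0.05 (6.06%, near the 5.96% of all genes). Ghrl, the hormone ghrelin, whose exons overlap antisense transcripts, held 0.642, 13.6, 3.08 and 1.66 CPM in wild type and 3.14, 5.39, 2.95 and 3.80 CPM in knock-out at 2 days. Its 14 day values were 6.43, 3.95, 4.28, 4.62 and 11.4 against 99.5, 31.7, 10.4, 3.20 and 10.8 CPM, high in knock-out libraries 1 and 2, which carry the letter B. Its difference was 2.64 ± 1.09 (SE). The transcription factor Nkx2-2, whose exons overlap an antisense transcript, had 1.52 ± 0.95 (SE). Resp18 was at 0 in 7 of 8 libraries at 2 days, and its fitted difference turned from negative to 0.89 without knock-out library 4. Without knock-out library 2 at 2 days the list median was 0.84, and without knock-out library 1 at 14 days 0.11.

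Mitochondrially encoded genes had 9 of 10 positive differences, a median of 0.92 and 0 members with an unadjusted p under 0.05. The value rested on wild-type library 1 at 2 days, where mt-Cytb held 192976 CPM against 36091 to 48603 CPM in the other 3 wild-type libraries, and the median was 0.17 without it. The median effect at 2 days was -0.31 with that library and 0.44 without it. Without wild-type library 3 at 14 days the median difference was 1.35, and 7 members had an unadjusted p under 0.05. The mitochondrial share of counts was 35.5% ± 5.77 in knock-out and 34.3% ± 10.1 in wild type at 2 days (SD, n = 4 per group), with p = 0.886 in an exact two-sided permutation test. The 14 day shares were 15.9% ± 6.28 and 12.3% ± 8.07 (SD, n = 5 per group), with p = 0.452 in the same exact test.

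The stem cell and Wnt target lists had median differences near that of all genes. The 29 stem cell markers had a median difference of 0.09, with 16 positive and 0 at an unadjusted p under 0.05 in either direction. Their median effect was -0.12 at 2 days, with 6 members higher in the knock-out, and -0.06 at 14 days. At 2 days all 4 knock-out libraries were below the wild-type mean for this list, by 0.07 to 0.26, and wild type ranged from -0.12 to 0.10. At either time 0 members had an unadjusted p under 0.05. Lgr5 had 0.46 ± 0.32 (SE), Ascl2, a transcription factor of the stem cell state, 0.68 ± 0.41 (SE), Tnfrsf19 0.49 ± 0.30 (SE), Clca3b 0.61 ± 0.36 (SE) and Prom1 0.46 ± 0.27 (SE), while Smoc2 had -0.24 ± 0.23 (SE). Ascl2 stood at 91.4 CPM in wild-type library 1 at 2 days against 30.7 to 42.2 CPM in the others, and had 0.25 without it. The 21 Wnt targets had a median of -0.01, with 10 positive, and 0.02 with RLE size factors. Of these, 3 had an unadjusted p under 0.05 (14.3%, against 5.96% of all genes). Nkd2, a feedback inhibitor of Wnt signalling, held 0.600, 4.02, 2.12 and 2.18 CPM in wild type and 1.10, 18.2, 10.3 and 3.87 CPM in knock-out at 2 days, and 0.0855 to 2.21 against 0.0731 to 0.725 CPM at 14 days. Its difference was -3.91 ± 1.14 (SE). Myc, a driver of growth, had -0.75 ± 0.31 (SE) with an effect of -0.54 at 14 days, and Prox1, whose exons overlap an antisense transcript, 1.17 ± 0.46 (SE).

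**Figure D5:**
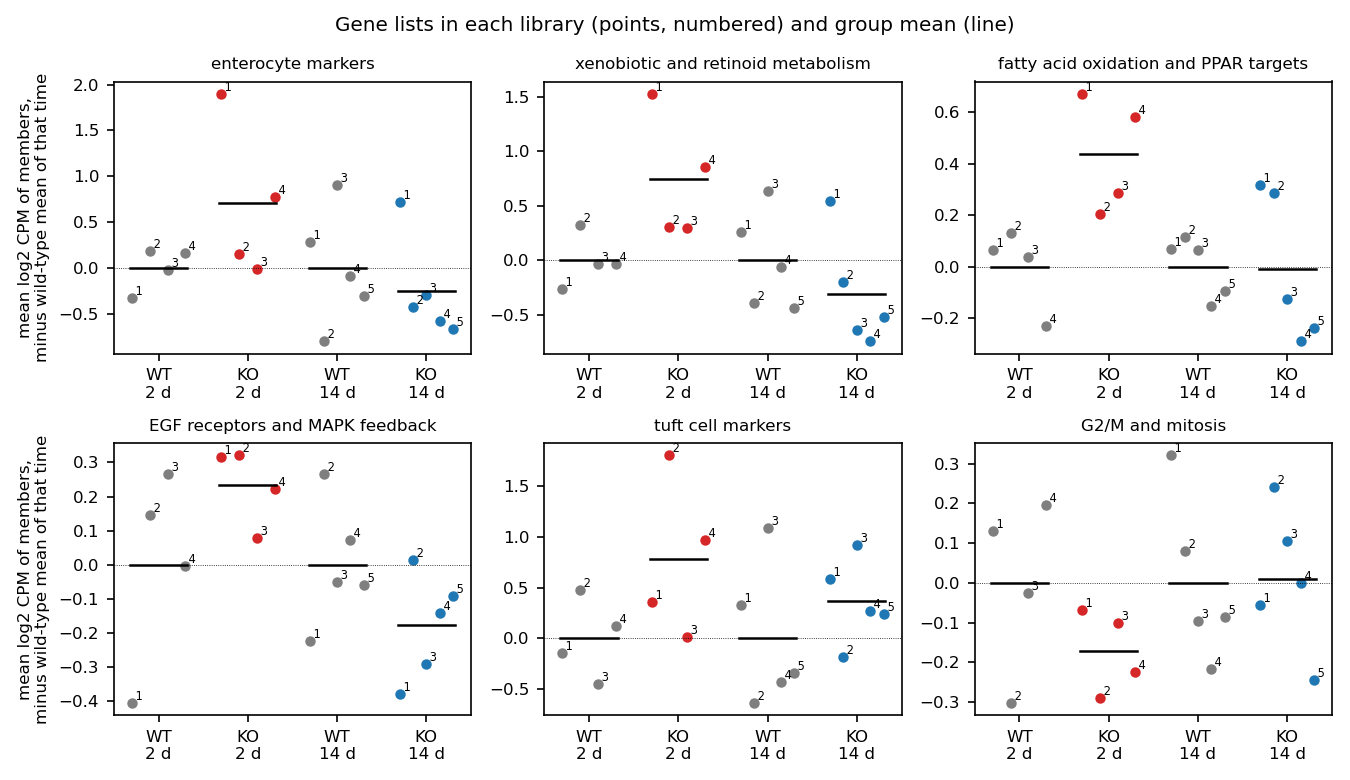
Mean log2 CPM of the members of 6 lists in each library, minus the wild-type mean of that time, for wild type (grey) and knock-out (red at 2 days, blue at 14 days), with library numbers and the group mean as a line. Knock-out library 1 is the highest enterocyte value at 2 days (1.90) and the highest knock-out value at 14 days (0.72), and wild type at 14 days ranges from -0.80 to 0.91.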

How the data were processed

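RNA from sorted intestinal stem cells was amplified and sequenced after poly(A) selection, per the labels' protocols. The authors deposited whole-number counts per Ensembl gene, 1 table per time. The submitters' processing notes name bcl2fastq 2.20.0.422, STAR 2.4.2a and GRCm38. The annotation, the counter and any use of strand were not given in the sources used here. Symbols came from GENCODE and matched 42462 of 43432 identifiers, and coordinates are on GRCm38. Columns marked as Dlg1 minus were read as knock-out, and libraries are numbered by their place in the table.

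The deposited counts of all 18 libraries were fitted as 4 group means by edgeR 4.0.16 (R 4.3.3) with TMM factors and a quasi-likelihood test, after a filter at a minimum count of 10. P-values were adjusted by Benjamini-Hochberg over 15458 genes, and a gene was called at an adjusted p under 0.05. The method was tested on simulated data. Standard errors come from the log2 change and the F statistic, and a prior count of 2 was added for log2 CPM. Shares of counts were compared by exact permutation tests.

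The text names Dlg1, Arhgap31 and Cdc42, the 10 genes per direction of smallest p for the difference among annotated genes with an average log2 CPM of at least 2, up to 6 genes per opposite pattern, and up to 4 members of each list described. The lists described are the stem cell and Wnt target lists and the 8 with the largest median. A result for 1 list member is not reported here. Further list members were named after their values were seen. The members and lists were chosen with earlier results of these data known.

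Alternatives were RLE and upper-quartile factors, no filter, a minimum count of 50, DESeq2 1.42.0, limma voom (limma 3.58.1) with sample weights, exclusion of mitochondrial genes and predicted models, Y-linked transcripts as a covariate, exclusion of the 2 libraries that stand apart, and exclusion of each library in turn. The column-name letter as a covariate was added after seeing the data.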

Additional observations from a re-analysis of the deposited data

Results flagged for a closer look

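In 36 of 256 groups of values tested, 1 library lay far from the rest of its group by Dixon's criterion, which chance gives in about 1 of 20. Wild-type library 1 at 2 days was the highest of its group in total counts (40.5 M) and the lowest in the share of predicted gene models (1.03%). It was also the highest for Itgam (65.8 CPM), Rida (16.5 CPM), Myo5a (55.1 CPM), Prom1 (496 CPM), Cd24a (972 CPM) and Ckap2l (219.8 CPM), and for the mitochondrial genes mt-Nd2 (71837 CPM), mt-Cytb (192976 CPM), mt-Nd5 (67961 CPM) and mt-Nd4 (48288 CPM). Wild-type library 2 at 2 days was the lowest for Cdc42 (147 CPM), and library 4 was the only one of its group with reads of Gfi1b (0.192 CPM).

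Knock-out library 1 at 2 days was the highest of its group for Adh6a (84.6 CPM), Slc27a4 (38.5 CPM) and Alpi (137 CPM), library 2 for Dusp5 (47.3 CPM) and library 4 for Resp18 (1.58 CPM).

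Wild-type library 3 at 14 days was the highest of its group in the mitochondrial share of counts (26.3%). It was the highest for Ptprh (15.2 CPM), Slc35c2 (45.7 CPM), Spry2 (19.3 CPM) and Smc4 (402 CPM), for the tuft cell markers Gfi1b (3.25 CPM), Bmx (9.92 CPM), Cd24a (355 CPM) and Gng13 (1.88 CPM), and for mt-Cytb (19516 CPM), mt-Nd5 (6213 CPM) and mt-Nd4 (6589 CPM). Wild-type library 1 at 14 days was the lowest for Hkdc1 (39.1 CPM). Knock-out library 1 at 14 days was the highest for Adh6a (244 CPM) and Cyp4f14 (55.6 CPM), and library 5 was the lowest for St3gal4 (66.6 CPM) and the highest in predicted gene models (48.8%).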

How the results depend on the processing

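For the difference between times, 98 of 35326 genes were called without a filter on low counts, and 90 of the 98 are genes that the filter keeps. DESeq2 called 13, and the fit with Y-linked transcripts as a covariate called 1. From 0 to 1 were called when 1 library was left out, against 0 in the reported analysis. An unadjusted p under 0.05 was reached by 2206 genes without the filter and by 721 to 1293 with 1 library left out, against 921. At 2 days 2 genes were called in the reported analysis, 156 without the filter, 49 by DESeq2, 0 by voom, 4 with the Y-linked covariate, 0 without the 2 libraries that stand apart, and 0 to 3 with 1 library left out. At 14 days 15 genes were called without the filter, 1 by DESeq2 and 2 by voom, against 0. The 15 genes with opposite effects became 115 without the filter, 81 by voom, 24 without the 2 libraries that stand apart, and 6 to 29 with 1 library left out. The causes were not tested. The knock-out minus wild-type mitochondrial share at 2 days changed sign, ranging from -1.55 to 6.11 percentage points with 1 library left out, with the other negative values at -0.15, -0.25 and -0.10. The difference of Arhgap31 was -0.19 without the 2 libraries that stand apart, -0.18 without wild-type library 1 at 2 days and -0.02 without knock-out library 3 at 14 days, and its highest value with 1 library left out was 0.74. That of Resp18 ranged from -5.37 to 0.89, the latter without knock-out library 4 at 2 days. The mitochondrially encoded list has no value when mitochondrial genes are left out.

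No paired analysis was possible because the columns of the tables carry no replicate numbers of the labels. The median standard error of 0.43 for the difference limits what can be detected.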

Other observations

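Immediate early and heat shock genes, which respond within minutes to stress or growth factors, had a median difference of -0.20, with 25 of 32 negative and 7 (21.9%) negative at an unadjusted p under 0.05, against 3.64% of all genes. Among them Hspa1a, an inducible chaperone chosen after its values were seen, had -2.63 ± 0.92 (SE), and its exons overlap an antisense transcript. Interferon-stimulated genes had a median of -0.22, with 25 of 40 negative, and 1 positive member alone reached an unadjusted p under 0.05 (2.5%, against 5.96% of all genes). The median of goblet cell markers was 0.18, and 17 of 27 were positive. An unadjusted p under 0.05 was reached by 3 positive goblet members and 1 negative one (14.8%, against 5.96% of all genes). Mitochondrial ribosomal proteins had a median of 0.16, with 54 of 75 positive, and S phase genes 0.13, with 34 of 53 positive. Polarity complexes, to which Dlg1 belongs, had a median of -0.10, with 22 of 37 negative, and regulators and effectors of Cdc42 a median of 0.09, with 37 of 59 positive. No member of these lists was called by edgeR with the filter on low counts. Without it edgeR called 98 of 35326 genes. Among them were 3 of the immediate early and heat shock list, Hspa1a, Hspa1b and Hsph1, as well as Ccl6 of the goblet list and Crb2 of the polarity list.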
